A study of Saccharomyces cerevisiae with 10 samples.

Results

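The SUN family of budding yeast comprises 4 genes, UTH1, NCA3, SUN4 and SIM1, named after SIM1, UTH1 and NCA3 with SUN4 as the last to join. They were taken by name from a table of 5989 coding sequences, and the 4 genes had been chosen by their measured values over the same time course, so their levels are given as a description, with no test. Wild-type BY4741, a haploid laboratory strain of mating type a with the auxotrophic deletions that all groups shared, was cultured in synthetic complete medium at 30 °C until the OD600 was 0.4 to 0.5. It was then brought to 1.5 M KCl, a hyperosmotic salt stress, and whole cells were sampled every 30 min. The 5 groups were unstressed cells (0 h) and cells after 0.5, 1, 1.5 and 2 h in KCl, with 1 library at each time from each of 2 independent replicate experiments, called series a and series b here. Polyadenylated RNA was purified and sequenced from random-primed cDNA libraries.

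SUN proteins are secreted, serine-rich and cysteine-containing proteins found in the cell wall, and their sequences resemble a beta-glucosidase of another yeast. The wall surrounds the cell with beta-glucan, mannoprotein and a little chitin, and it is remodelled as the bud grows and as mother and daughter cells part. SUN4 acts in that parting, UTH1 is known for wall biogenesis and for effects on oxidative stress and life span, NCA3 acts with NCA2 in the expression of mitochondrial ATP synthase subunits, and SIM1 was linked to control of DNA replication. A role of UTH1 in mitophagy, the autophagy of mitochondria, has been reported and disputed. UTH1 and NCA3 are duplicates that arose from the whole-genome duplication, as are SUN4 and SIM1. The family is unrelated to the SUN-domain proteins of the nuclear envelope.

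The 4 genes lie on 4 chromosomes, each as 1 exon. In the R64 assembly SIM1 (YIL123W) occupies chrIX:128151-129581 on the plus strand, NCA3 (YJL116C) chrX:193860-194873 on the minus strand, UTH1 (YKR042W) chrXI:519527-520624 on the plus strand and SUN4 (YNL066W) chrXIV:501515-502777 on the plus strand. They encode 476, 337, 365 and 420 residues. None of them overlaps another coding sequence, and the longest run of identical bases between any 2 of the coding sequences was 14 to 21 bases, so reads could in most places be told apart. The stretch of 90 coding bases most alike in all 4, read from the RefSeq R64 genome, is shown because it lets the relation of the genes be seen directly. Capitals mark the 58 bases that are identical in all 4 genes.
UTH1: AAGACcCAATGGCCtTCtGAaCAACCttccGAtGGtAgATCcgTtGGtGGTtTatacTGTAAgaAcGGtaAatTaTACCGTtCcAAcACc
NCA3: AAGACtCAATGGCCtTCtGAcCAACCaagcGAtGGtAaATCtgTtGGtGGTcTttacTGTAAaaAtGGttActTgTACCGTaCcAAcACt
SUN4: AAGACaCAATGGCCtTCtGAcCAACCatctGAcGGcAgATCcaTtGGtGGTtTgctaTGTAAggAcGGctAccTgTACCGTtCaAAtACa
SIM1: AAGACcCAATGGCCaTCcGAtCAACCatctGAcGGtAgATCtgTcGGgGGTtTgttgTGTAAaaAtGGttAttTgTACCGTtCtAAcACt
These stretches are the coding strands of chrXI:520022-520111, plus strand, of chrX:194373-194462, minus strand, of chrXIV:502172-502261, plus strand and of chrIX:128976-129065, plus strand.

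Aligned as a whole, the translated proteins were most alike within the duplicate pairs. NCA3 and UTH1 were 67.2% identical over 332 aligned residues, and SUN4 and SIM1 were 73.2% identical over 410. The 4 other pairs were 58.2% to 63.5% identical. The likeness was concentrated in the last 250 residues, where SUN4 and SIM1 shared 84.4% and NCA3 and UTH1 73.6%, against 55.6% and 47.6% in the residues before them. All these values count only positions aligned without a gap. On that count UTH1 and SIM1, which are not a duplicate pair, had the highest value in those earlier residues, 58.4%. It does not make them the most alike pair there. A blastp search matched UTH1 to SIM1 only from residue 106 of UTH1 and 216 of SIM1 on. It matched UTH1 to NCA3 from residue 1 of both, and SUN4 to SIM1 also over residues 1 to 86 of SUN4 (45.3% identity). In an alignment of all 4, 149 positions were identical, 132 of them in the last 250 residues of UTH1, and 10 were cysteines. The residues before that end were 16.1% serine in NCA3, 22.4% in SUN4, 22.6% in UTH1 and 32.3% in SIM1, beside a median of 8.22% for whole proteins over 6002 coding sequences of the assembly.

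Levels are given as CPM, counts per unit of library total (the usual scale, with TMM scaling factors applied), and as CPM per kilobase of coding length where genes are compared. They are shares of polyadenylated RNA in bulk samples, in which fewer cells with a transcript and less of it per cell cannot be told apart. Library totals were 3372373 to 4913739 reads in series a, 4676814 at 0 h in series b and 7851019 to 8325291 at its later times. Each SUN gene had at least 319 reads in every library. The stress markers followed the label: all 5 (GPD1, GPP2, STL1, HSP12 and CTT1) rose at 1 h, 1.5 h and 2 h by edgeR, although only 1 rose and 1 fell at 0.5 h. Of the genes that this strain lacks or carries disrupted, LEU2 and MET17 had 0 reads in all 10 libraries. A count of 0 allows up to 0.89 CPM before TMM scaling. HIS3 had 0 to 7 reads. URA3 had 162 reads in the 0.5 h library of series a, against 0 to 5 in the other 9, so that library stands apart from its label in this respect. The mating type a genes MFA1 and STE2 had at least 156 reads in every library, and the alpha-factor gene MF(ALPHA)1 had 4 to 113.

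UTH1 was by far the most abundant member before stress, and at 2 h it had the largest fall of the 4; at 1.5 h SIM1 had a slightly larger one. Its levels were 5265 CPM in series a and 4847 in series b at 0 h, 5568 and 5516 at 0.5 h, 3596 and 3695 at 1 h, 1286 and 1278 at 1.5 h, then 907 and 986 at 2 h. The ranges of the 5 times did not overlap: 0.5 h was highest, followed by 0 h, 1 h, 1.5 h and 2 h. The lead of 0.5 h over 0 h was small and depended on the scaling. With scaling by library size alone it was 0.054 (log2, SE 0.046). Against 0 h, the log2 fold change was 0.13 (SE 0.05) at 0.5 h, -0.47 (SE 0.05) at 1 h, -1.98 (SE 0.05) at 1.5 h and -2.42 (SE 0.05) at 2 h, a 5.33-fold lower level at the end. The 2 h value ranked 15 from the lowest among the 5943 coding sequences tested. The steepest step was from 1 h to 1.5 h (-1.51, SE 0.05). By level per kilobase, UTH1 ranked 17 among all coding sequences in both 0 h libraries, and 199 and 189 in the 2 h libraries.

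NCA3, the duplicate of UTH1, followed a different course, with a low in the middle and its highest level at the end. It was at 218.1 and 199.9 CPM in series a and b at 0 h, at 118.0 and 120.6 at 0.5 h, at 94.2 and 94.5 at 1 h, at 120.8 and 100.4 at 1.5 h, then 262.0 and 250.7 at 2 h. Both 2 h libraries lay above both 0 h libraries and these above all others, while the 0.5 h and 1.5 h ranges overlapped. The log2 fold change against 0 h was -0.81 (SE 0.07) at 0.5 h, -1.15 (SE 0.08) at 1 h, -0.94 (SE 0.07) at 1.5 h and 0.29 (SE 0.07) at 2 h. Over the last 30 min alone the level of NCA3 became 2.35-fold higher (1.23, SE 0.07; 1.12 within series a and 1.32 within series b), which was the highest value of the 5943 coding sequences tested in that interval. Its step from 1 h to 1.5 h was small (0.21, SE 0.08) and rested on series a, with 0.36 within series a and 0.09 within series b. Without the 1.5 h library of series a it was 0.09 (SE 0.08), and without a 1 h library it was 0.20 (SE 0.10, series a left out) or 0.21 (SE 0.11, series b left out).

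SUN4, the member known for its part in cell separation, fell to a plateau. Its levels were 411.9 and 370.8 CPM at 0 h in series a and b, 334.8 and 339.8 at 0.5 h, 195.5 and 179.8 at 1 h, 102.0 and 107.4 at 1.5 h, then 109.0 and 106.5 at 2 h. Each time up to 1.5 h lay below the one before with no overlap, and the 1.5 h and 2 h ranges overlapped. The log2 fold change against 0 h was -0.21 (SE 0.06) at 0.5 h, -1.07 (SE 0.06) at 1 h, -1.90 (SE 0.06) at 1.5 h and -1.86 (SE 0.06) at 2 h. The decline was already steep between 0.5 h and 1 h (-0.86, SE 0.06) and was -0.83 (SE 0.07) between 1 h and 1.5 h. From 1.5 h to 2 h it was 0.03 (SE 0.07).

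SIM1, the duplicate of SUN4, reached a similar plateau by a later step. It was at 360.6 and 335.9 CPM at 0 h in series a and b, at 340.4 and 366.6 at 0.5 h, at 249.4 and 285.8 at 1 h, at 82.5 and 86.0 at 1.5 h, then 83.4 and 87.0 at 2 h. The 0 h and 0.5 h ranges overlapped, as did those of 1.5 h and 2 h, and 1 h lay between these pairs without overlap. The log2 fold change against 0 h was 0.03 (SE 0.06) at 0.5 h, -0.37 (SE 0.06) at 1 h, -2.04 (SE 0.07) at 1.5 h and -2.02 (SE 0.07) at 2 h. Most of the loss fell between 1 h and 1.5 h (-1.67, SE 0.07), and the step to 2 h was 0.02 (SE 0.08).

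**Figure D1:**
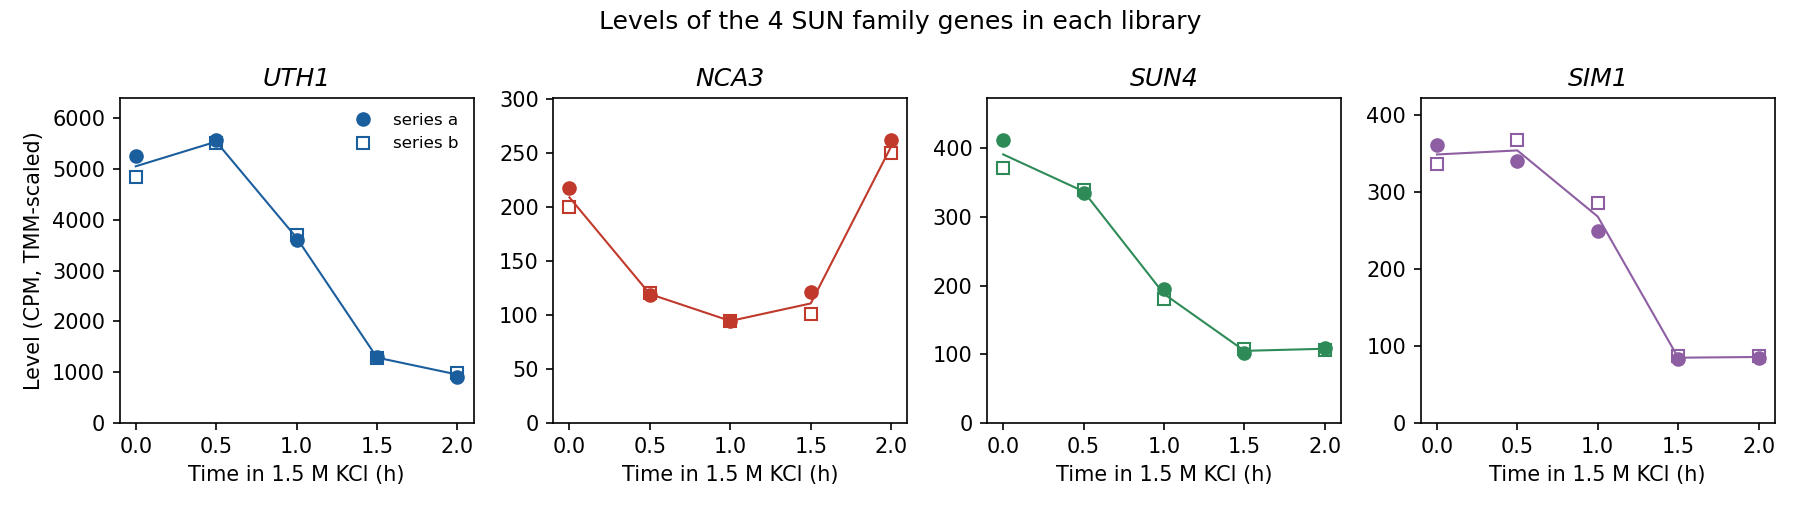
Level of each SUN family gene (CPM after TMM scaling, linear axes from 0, scaled separately for each gene) against time in 1.5 M KCl in hours; filled circles are series a, open squares series b and lines join the means of 2 libraries. UTH1, SUN4 and SIM1 end far below their 0 h levels, and NCA3 ends above its own.

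Counted by edgeR calls at an adjusted p under 0.05, which were made on the values that chose the genes, test nothing about them and are given as counts only, the members were placed as follows. At 0.5 h against 0 h, 1 member was higher and 2 were lower, where 26.0% of all coding sequences tested were called higher and 27.6% lower. All 4 members were lower at 1 h (28.9% of all higher, 28.1% lower) and at 1.5 h (37.5% and 39.1%). At 2 h, 3 were lower and 1, NCA3, was higher (37.8% of all higher, 37.0% lower). Between times, 4 of 4 were lower at 1 h than at 0.5 h (32.9% of all higher, 32.1% lower), and 3 were lower and 1 higher at 1.5 h than at 1 h (34.1% and 34.0%). From 1.5 h to 2 h, 1 was higher, 1 lower and 2 were not called (15.5% and 9.47%). The 0.5 h count rested on small values. UTH1 dropped out of it without the 0.5 h library of series a (0.13, SE 0.06), without that of series b (0.14) or without the 0 h library of series b (0.07). SUN4 dropped out of it without the 0 h library of series a (-0.14, SE 0.06) and with DESeq2's Wald test (-0.17, SE 0.08). Without the 0.5 h library of series a, the one with URA3 reads, NCA3 stood at -0.79, SUN4 at -0.20 and SIM1 at 0.07. The 1 member higher at 1.5 h than at 1 h, NCA3, also rested on a small value. It dropped out of that count without the 1.5 h library of series a (0.09), or without the 1 h library of series a (0.20) or b (0.21).

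**Figure D2:**
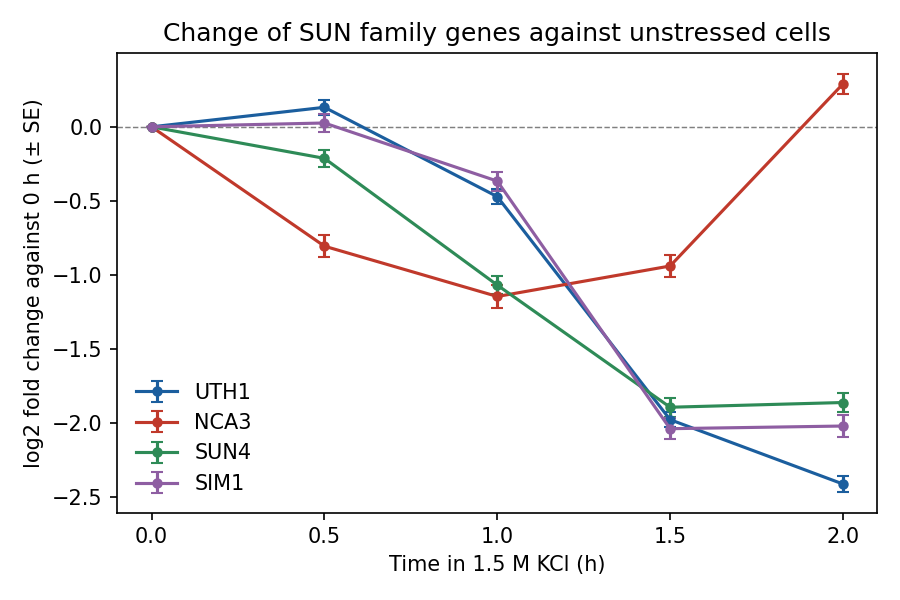
Log2 fold change against 0 h (vertical axis) at each time in 1.5 M KCl in hours (horizontal axis) for the 4 SUN family genes. Bars are ± SE derived from edgeR's F statistic, and the value at 0 h is 0 by definition. UTH1, SUN4 and SIM1 lie between -1.86 and -2.42 at 2 h, and NCA3 lies at 0.29.

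Per kilobase, the family changed its make-up as well as its total. The summed level of the 4 genes was 5588 and 5140 CPM per kilobase at 0 h in series a and b, 5690 and 5668 at 0.5 h, 3697 and 3800 at 1 h, 1428 and 1409 at 1.5 h, then 1230 and 1291 at 2 h. UTH1 supplied 85.8% ± 0.057 of this sum at 0 h (SD, n = 2), 88.9% ± 0.35 at 0.5 h and 68.4% ± 1.68 at 2 h. NCA3 supplied 3.84% ± 0.0099 at 0 h, 2.07% ± 0.038 at 0.5 h and 20.1% ± 1.32 at 2 h. NCA3 was the lowest of the 4 per kilobase at 0 h (206 ± 12.7, against 243 ± 12.2 for SIM1 and 310 ± 23.0 for SUN4) and the second at 2 h (253 ± 7.85, against 85.3 ± 1.42 for SUN4 and 59.6 ± 1.76 for SIM1).

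Ratios of genes within a library do not depend on the scaling between libraries. The UTH1 to NCA3 ratio per kilobase was 22.3 and 22.4 at 0 h in series a and b, 43.6 and 42.2 at 0.5 h, 35.3 and 36.1 at 1 h, 9.83 and 11.8 at 1.5 h, then 3.20 and 3.63 at 2 h. It was thus higher in both 0.5 h libraries than at any other time and lower in both 2 h libraries than at any other time. The SUN4 to SIM1 ratio stayed within a much narrower span, at 1.29 and 1.25 at 0 h, 1.11 and 1.05 at 0.5 h, 0.888 and 0.713 at 1 h, 1.40 and 1.41 at 1.5 h, then 1.48 and 1.39 at 2 h. SIM1 exceeded SUN4 per kilobase in both 1 h libraries and in no other. The UTH1 to SIM1 ratio lay between 14.2 and 21.3 in all 10 libraries.

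**Figure D3:**
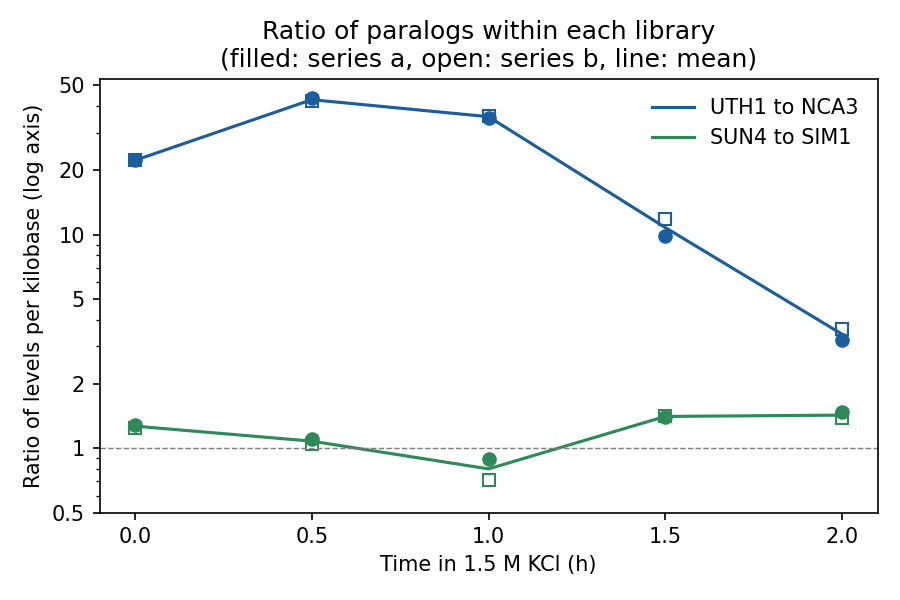
Ratio of the levels per kilobase (log axis) of UTH1 to NCA3 and of SUN4 to SIM1, the duplicate pairs, against time in 1.5 M KCl in hours; filled circles are series a, open squares series b and lines join the means of 2 libraries. The UTH1 to NCA3 ratio runs from 42.9 at 0.5 h to 3.42 at 2 h, as means, and the SUN4 to SIM1 ratio lies between 0.713 and 1.48 in the 10 libraries.

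Over the 10 libraries, which share 5 times and 2 series, Pearson's r of log2 CPM was 0.988 between UTH1 and SIM1, 0.947 between SUN4 and SIM1 and 0.945 between UTH1 and SUN4. NCA3 had r of -0.302 with UTH1, its duplicate, -0.216 with SIM1 and -0.003 with SUN4. Among 5612 other coding sequences with a mean of at least 10 CPM, the 5 most like NCA3 were GPM1 (0.947) and PGK1 (0.945), both of glycolysis, TOM1, a ubiquitin ligase gene (0.944), SKS1, a kinase gene (0.9305), and AQR1, a membrane transporter gene (0.927). AQR1 is also the right-hand neighbour of SUN4, 946 bases away on the same strand. Most like UTH1 were FCY1 (0.998), YHB1 (0.997), GAS3 and PXR1 (0.996 each) and YCR051W (0.995). GAS3 encodes a relative of the wall enzymes that lengthen beta-glucan, and YHB1 a flavohemoglobin that detoxifies nitric oxide.

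Most like SUN4 were the hexokinase gene HXK2 (0.997), GND1 (0.995) of the pentose phosphate pathway, the zinc transporter gene ZRT2 (0.994), ABP140 (0.994) and CYC8 (0.994, a corepressor gene). Most like SIM1 were PIS1 (0.997), the phosphatidylinositol synthase gene, VRG4 (0.996), the Golgi GDP-mannose transporter gene, MRH1 (0.996), GAS5 (0.995) and IKI3 (0.995). High r over 5 times says that the courses had one shape, not one size: UTH1 had a log2 fold change of -2.42 at 2 h, and FCY1 had -0.87. No gene was among the 5 of more than 1 member.

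The neighbours of the SUN genes moved with them at some times and apart from them at others. At 1 h, AYR1 (-0.44) and POG1 (-0.43) beside SIM1 fell, with SIM1 at -0.37. AQR1 (-0.996) and RPL9B (-0.19) beside SUN4 fell too, with SUN4 at -1.07. Of all coding sequences tested, 28.1% were called lower at 1 h. SHB17 (-0.03) and YKR041W (0.41) beside UTH1 were not called at 1 h, with UTH1 at -0.47. Nor were PHO86 (0.075) and ASF1 (0.12) beside NCA3, with NCA3 at -1.15. At 1.5 h, where 39.1% of all were called lower, RPL9B fell (-1.24), as did SHB17 (-1.06), with SUN4 at -1.90 and UTH1 at -1.98. AYR1 fell (-0.28) and POG1 was not called (-0.21) at 1.5 h, with SIM1 at -2.04. AQR1 beside SUN4 (-0.37) and PHO86 beside NCA3 (-0.185) fell at that time too, with NCA3 at -0.94. ASF1 beside NCA3 (-0.045) and YKR041W beside UTH1 (-0.008) were not called. At 0.5 h, AYR1 (-0.73) and POG1 (-0.615) fell, with SIM1 at 0.03. RPL9B rose (0.36) and AQR1 fell (-0.54) at that time, with SUN4 at -0.21. SHB17 rose (0.43) and YKR041W was not called (-0.275), with UTH1 at 0.13. Beside NCA3, PHO86 and ASF1 rose at 0.5 h (0.36 and 0.54), with NCA3 at -0.81, and were not called at 2 h (-0.05 and -0.13). Beside SIM1, AYR1 and POG1 were not called at 2 h either (-0.03 and -0.06), where SIM1 was at -2.02. Beside UTH1, SHB17 fell at 2 h (-1.12), and YKR041W, on the other side, was at 0.18 and not called. Beside SUN4, RPL9B was lower (-0.58) and AQR1 slightly higher (0.16) at 2 h. Whether reads were counted by strand is not given in the sources used here.

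One further protein was related to the family by sequence. A blastp search with each SUN protein found the product of YMR244W (chrXIII:757250-758317, plus strand, 355 residues) at 32.7% to 38.9% identity over the aligned part. YMR244W is an uncharacterised reading frame with few reads, 20 to 93 per library. It was at 4.88 and 4.57 CPM at 0 h in series a and b, 5.57 and 4.20 at 0.5 h, 8.05 and 6.34 at 1 h, 9.72 and 9.95 at 1.5 h, then 10.7 and 9.81 at 2 h. Both libraries of 1.5 h and of 2 h lay above all libraries of the earlier times. The rise was called by edgeR's quasi-likelihood test at 1.5 h (1.06, SE 0.23, adjusted p = 0.00042) and at 2 h (1.10, SE 0.24, adjusted p = 0.00035), and at 1 h it was 0.56 (SE 0.26, adjusted p = 0.077).

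The 300 bases upstream of each start codon were searched on both strands for 3 motifs. CGCGAAA, a form of the element bound by the G1/S factor SBF and called SCB, was found upstream of SUN4 and of SIM1 and of neither other member. It occurs in 3.95% of the same windows of all 6001 coding sequences (237 windows). Other forms of the SCB element were not searched, so these matches and this share cover CGCGAAA alone. AGGGG, the stress response element bound by Msn2 and Msn4, and ACGCGT, the element called MCB, were in 22.2% and 3.48% of all windows and in those of 0 members. ACGCGT and CGCGAAA share the letters CGCG, but neither contains the other. The stretches of 100 bases that hold the 2 matches are printed from the RefSeq R64 genome on the strand of the gene, with the match in capitals. In SIM1 the motif lies on the other strand, so its reverse complement is what is in capitals.
SUN4: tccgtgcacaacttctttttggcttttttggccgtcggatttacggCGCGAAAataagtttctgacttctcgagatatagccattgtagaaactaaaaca
SIM1: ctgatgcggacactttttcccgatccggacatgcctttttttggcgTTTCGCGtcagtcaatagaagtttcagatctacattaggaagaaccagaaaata
They are chrXIV:501306-501405, plus strand, with the match at bases 163 to 157 before the start codon, and chrIX:127879-127978, plus strand, with the match at bases 226 to 220. A match is only a string of letters and was not tied to binding.

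Genes of cell separation, the process in which SUN4 acts, were tested one by one, as part of the fit over all coding sequences, and counted. These 8 genes are transcribed mostly in daughter cells at the end of mitosis or act in the same step. At 0.5 h, 3 rose and 2 fell (median log2 fold change 0.07), and at 1 h 7 fell (-0.75). At 1.5 h all 8 fell (-1.21) and at 2 h 7 fell (-1.14). The median of all coding sequences tested was between -0.01 and 0.01 at each time, where TMM scaling tends to place it. With scaling by library size alone that median was 0.31 at 1.5 h and 0.29 at 2 h. The shares of all coding sequences called higher and lower, given above for each time, are the background for this and the later list counts, of which several at 0.5 h lie near them. The lists were chosen with earlier results of these data known, and genes were named from them mostly for large changes at 1.5 h. The p-values of these and the later list genes, SSD1 included, are therefore given as a description at every time. The 0.5 h count of 5 calls was 3 without the 0.5 h library of series b. CTS1, the endochitinase that cuts the septum, fell from a mean of 1644 CPM at 0 h to 571.6 at 1.5 h (-1.53, SE 0.05, edgeR adjusted p = 5.5e-16). DSE2, a daughter-specific wall protein, fell from 880 to 203 CPM (-2.11, SE 0.07), and EGT2, which acts in the same step, from 779.5 to 254.1 (-1.61, SE 0.06). AMN1, a daughter-cell regulator of mitotic exit, fell from 389.8 to 132.5 CPM (-1.56, SE 0.06). DSE1, a daughter-specific gene, was the member not called at 2 h (-0.13, SE 0.07, edgeR adjusted p = 0.089).

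Between 0.5 h and 1 h all 8 separation genes fell (median -0.86), from -0.17 for DSE3 to -1.70 for DSE2, with SUN4 at -0.86. Between 1 h and 1.5 h, 6 fell and 1 rose (median -0.33), with SUN4 at -0.83. From 1.5 h to 2 h, 2 rose and 0 fell (median 0.09), with SUN4 at 0.03. The last count was 6 with the replicate series as a block, and 1 without the 1.5 h library of series b and 6 without either 0 h library.

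SSD1 encodes an RNA-binding protein known to bind SUN family mRNAs. Its mean level was 414.9 CPM at 0 h and 412.4 at 1.5 h (-0.01, SE 0.05, edgeR adjusted p = 0.89). It was lowest at 0.5 h, at 282.1 CPM (-0.56, SE 0.06, edgeR adjusted p = 8.3e-08), and was still lower at 1 h (353.5 CPM; -0.23, SE 0.05).

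Enzymes that act on wall glucan, the polymer that SUN proteins are thought to bind or modify, mostly fell, with exceptions. Of 17 genes, 6 rose and 4 fell at 0.5 h (median 0.09), 11 fell and 0 rose at 1 h (-0.35), and 13 fell and 3 rose both at 1.5 h (-1.10) and at 2 h (-0.79). SCW11 and DSE4 belong to this list and to the separation genes. GAS1, the main beta-glucan elongase, fell from 1987 to 354 CPM at 1.5 h (-2.49, SE 0.05, edgeR adjusted p = 3.3e-19). SCW4 and SCW10, glucanase-like wall proteins, had log2 fold changes of -2.12 and -1.99, and UTR2, which joins chitin to glucan, fell too (-1.997, SE 0.06). The 3 that rose at 1.5 h were GAS4 (0.99), CRR1 (0.94) and SPR1 (0.40), named here after their values were seen. They were at 10.5 to 20.2 CPM at 0 h. GAS2, named in the same way, fell from 106.4 to 45.3 CPM (-1.24, SE 0.08).

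**Figure D4:**
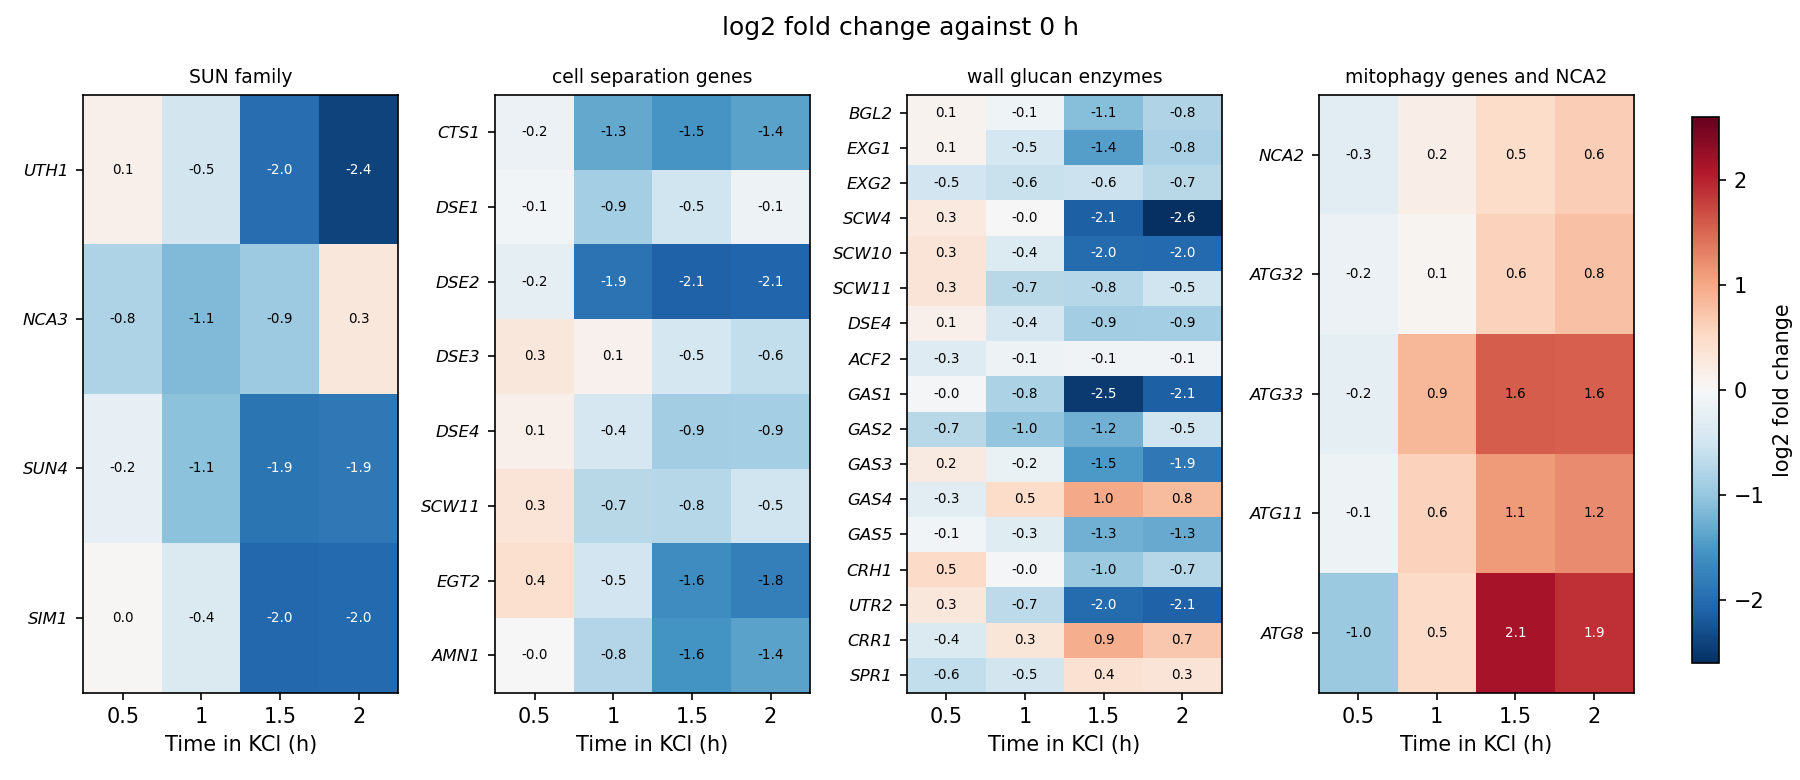
Log2 fold change against 0 h (colour and printed value) of the SUN family, cell separation, wall glucan and mitophagy list genes (rows) at 0.5, 1, 1.5 and 2 h in 1.5 M KCl (columns), from edgeR. Separation genes are mostly blue (lower) from 1 h on, glucan enzymes at 1.5 h and 2 h, and the mitophagy list is red (higher) at 1.5 h and 2 h.

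Secreted wall proteins, which reach the wall by the same route as SUN proteins, also fell for the most part. Of 20 genes, 9 rose and 5 fell at 0.5 h (median 0.10), 4 rose and 9 fell at 1 h (-0.12), 3 rose and 16 fell at 1.5 h (-0.84), and 3 rose and 14 fell at 2 h (-0.82). The mannoprotein gene CWP1 went the other way, from 71.7 CPM at 0 h to 949.9 at 1.5 h (3.73, SE 0.08, edgeR adjusted p = 3.8e-19). ECM33 (-1.94, SE 0.07), TIP1 (-1.82, SE 0.05) and CIS3 (-1.70, SE 0.06) fell, all 3 coding for wall mannoproteins. Of 8 chitin synthase genes and their partners, 3 rose and 2 fell at 0.5 h (0.15), 1 rose and 3 fell at 1 h (-0.08), 1 rose and 5 fell at 1.5 h (-0.20) and 2 rose and 4 fell at 2 h (-0.15). SKT5, CHS3 and CHS2 fell at 1.5 h (-0.71, -0.68 and -0.52), and CHS1, whose enzyme repairs the wall after separation, rose (0.42, SE 0.06).

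The mitochondrial side of the family was set beside NCA2, the partner of NCA3, and 4 mitophagy genes. None rose and 2 fell at 0.5 h (median -0.24), 3 rose at 1 h (0.49), and all 5 rose at 1.5 h (1.10) and at 2 h (1.22). NCA2 rose from 39.6 CPM at 0 h to 55.4 at 1.5 h and 62.1 at 2 h (0.49, SE 0.09 and 0.64, SE 0.09, edgeR adjusted p = 5.7e-05 and 2.2e-06). NCA3 was below its 0 h level at 1.5 h and above it at 2 h. ATG8, the autophagosome membrane protein gene, rose from 33.7 to 149 CPM at 1.5 h (2.14, SE 0.08), ATG33 by 1.57 (SE 0.11), ATG11 by 1.10 (SE 0.08) and ATG32, the mitophagy receptor gene, by 0.59 (SE 0.10). UTH1 was at -1.98 at that time.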

How the data were processed

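Per the file headers, the authors deposited, for every coding sequence of a library, a read count with an RPKM value. Of the deposited counts, 2.77% were not whole, so they were handled as estimated counts and rounded. The deposited RPKM values, which divide reads by coding length and library reads, served only as an alternative scale. Build R64 is named in the submitters' processing notes; for the aligner, counter and strand setting the sources used here give nothing. Of 65885 lines, 1302 gene and mRNA lines and 4693 identical second copies were left out, which left 5989 coding sequences in 10 libraries.

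Counts were tested with edgeR 4.0.16 (R 4.3.3, limma 3.58.1): quasi-likelihood, all 10 libraries, time group only, TMM scaling and filterByExpr, which kept 5943 and left out 46. Tests were two-sided with Benjamini-Hochberg adjustment over all 5943, with an adjusted p under 0.05 as the call. The biological coefficient of variation was 4.05%. Log2 CPM used a prior count of 2. The p-values measure the spread between libraries of 2 experiments. Counting floors (3 reads, 0.36 to 0.89 CPM before TMM scaling) cover counting error only. DESeq2 1.42.0, other scalings, no filter, unrounded counts, left-out libraries and a replicate block were the alternatives.

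The series letters mark independent experiments in the design text. The departures of series a libraries from their time means correlated at -0.113 to 0.313 between times over 5613 coding sequences, above 0.1 in 3 of 10 pairs of times. The SUN genes and all gene lists (cell separation, glucan enzymes, wall proteins, chitin synthases, mitophagy, osmostress and strain markers) were chosen with earlier results of these data known. From each list, up to 4 called genes with the largest absolute change at 1.5 h and at least 10 CPM were named, with CTS1, SSD1 and NCA2. A further list and motif are not reported here. For each SUN gene the 5 coding sequences with the highest Pearson r were named.

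Proteins were translated from the R64 coding sequences, aligned in pairs (gap penalties of 11 and 1) and with MAFFT 7.526, and searched with blastp 2.17.0 at an E-value under 1e-05. Python 3.11.15 with numpy 2.4.6, pandas 2.3.3, biopython 1.88 and matplotlib 3.10.9 was used.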

Additional observations from a re-analysis of the deposited data

How the results depend on the processing

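Of 28 SUN gene fold changes, all kept their direction and call with no filter, with unrounded counts, with DESeq2's size factors and with the replicate block. Scaling by library size alone moved the median of all coding sequences by 0.32 (log2) at 1.5 h and 0.28 at 2 h. Under it UTH1 at 0.5 h was 0.054 and no longer called, and values that were not called changed sign for SIM1 at 0.5 h (-0.052) and, from 1.5 h to 2 h, for SUN4 (-0.003) and SIM1 (-0.017). With DESeq2's Wald test SUN4 at 0.5 h was -0.167 and not called, 3 separation genes were called at 0.5 h in place of 5 and 1 from 1.5 h to 2 h in place of 2, and 754 coding sequences in place of 1485 were called in that interval. DESeq2's size factors gave 4 separation genes there. The replicate block gave 6 there and changed no other call of a SUN gene or count by over 1.5 times (3248 coding sequences called at 0.5 h).

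With single libraries left out, UTH1 at 0.5 h ranged from 0.073 to 0.192, SUN4 from -0.289 to -0.137 (not called without the 0 h library of series a), and SIM1 from -0.033 to 0.078. NCA3 from 1 h to 1.5 h ranged from 0.089 to 0.356 (not called without the 1.5 h library of series a or either 1 h library). SIM1 from 1.5 h to 2 h ranged from -0.02 to 0.054. The separation count ranged from 3 to 5 at 0.5 h and from 1 to 6 in the last interval, where the count of all coding sequences ranged from 859 (without the 2 h library of series b) to 1590. The causes were not tested. The deposited RPKM moved 18 of 20 member levels by more than the spread between libraries; it is a different scale. Depth limits the genes with few reads, such as YMR244W with 20 to 93 per library.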
